A study of Mus musculus with 6 samples.

Results

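The membrane and secreted mucins described here are 7 genes, namely the membrane mucins Muc1, Muc4, Muc16, Muc20 and Muc15 and the secreted mucins Muc5ac and Muc5b. They were taken by gene symbol from a table of 56748 genes, and all 7 were found. The samples were RNA-seq libraries of basal cells, the stem cells of the airway epithelium, isolated from wild-type mouse tracheas and cultured for 4 days. The cells of 3 libraries were cultured with UK-5099, which blocks entry of pyruvate into mitochondria. Those of the other 3 were cultured with a mix of 3 inhibitors, made of Y-27632, A8301 (against the TGF-beta receptor kinases) and DMH-1 (against the BMP receptor kinases). There was no untreated group, so a difference cannot be assigned to either condition alone. The labels used here do not give the age or sex of the mice, the rest of the medium, or whether Y-27632 was present beside UK-5099. They do not tie replicates to different mice or dishes either, so the p-values measure the spread between these libraries, which may be technical.

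Mucins are glycoproteins whose long stretches rich in serine, threonine and proline carry dense O-linked sugars. Membrane mucins are anchored in the apical surface, where they form part of the glycocalyx, and some of them signal through a cytoplasmic tail. Secreted gel-forming mucins are stored in granules, join into networks through their cysteine-rich ends, and in the airway give mucus its viscosity. In the trachea the secreted mucins are products of luminal secretory and goblet cells and of the submucosal glands, whereas basal cells are the progenitors of the luminal cells.

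The libraries held between 19909589 and 27037795 gene reads. Values are normalized counts, reads per gene divided by a size factor for each library. Krt5 and Trp63, the keratin and the transcription factor that define basal cells, were high in all 6 libraries: Krt5 ran from 113975 to 126854 normalized counts with UK-5099 and from 37166 to 42045 with the 3 inhibitors, and Trp63 from 5423 to 5655 and from 3143 to 3295. The groups also differed in sex-linked genes, with Xist 1.70-fold higher and the Y-linked Ddx3y 1.76-fold lower with UK-5099, both detected in every library. The part of this difference in the results below was not tested.

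Most of the mucins were lower with UK-5099 than with the 3 inhibitors, and Muc15 went the other way. Of the 7 genes, 6 passed the low filter of a mean of 10 normalized counts, and 5 of these were called lower and 1 higher at an adjusted p under 0.05 (limma, Benjamini-Hochberg over 15704 genes). Over all genes tested 53.8% were called, 26.6% lower and 27.2% higher, so that 50.6% of calls were higher, against 39.1% when libraries were centred on their median. All 6 calls were of at least 2-fold, a size that 5.48% of the genes tested passed downward and 4.67% upward. In each of the 7 genes the values of the groups did not overlap, which held for 60.8% of all genes tested. Muc5b passed the filter only through its 3-inhibitor libraries, since its mean with UK-5099 was below 10. In a bulk sample fewer mucin-making cells and less mucin RNA per cell cannot be told apart.

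**Figure D1:**
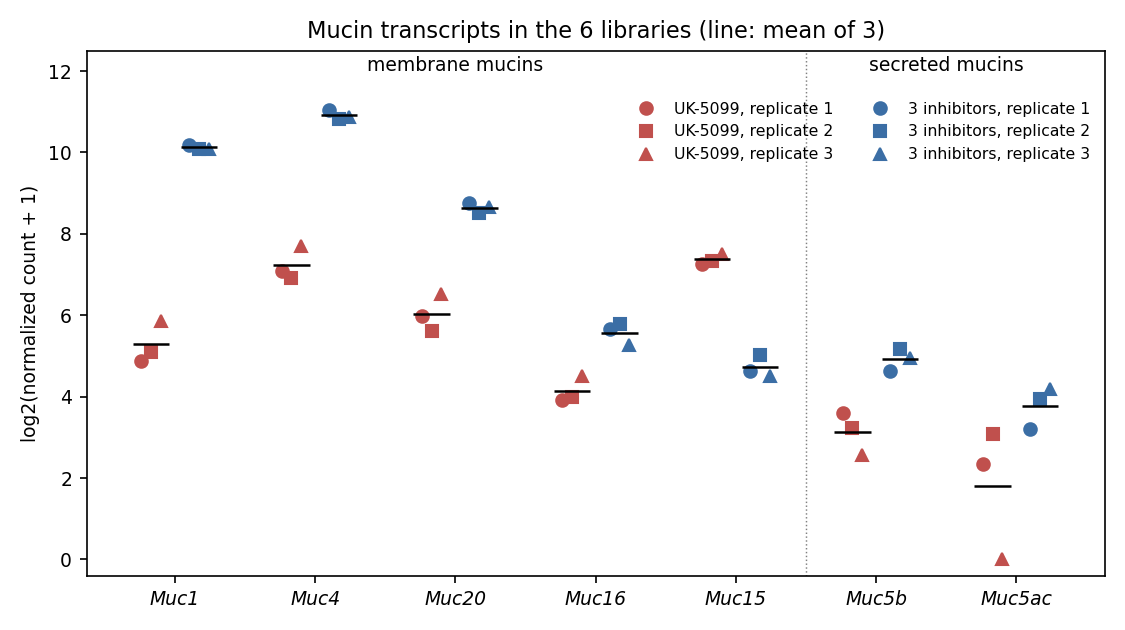
Normalized counts of the 7 mucins on the log2(normalized count + 1) scale in each of the 6 libraries, with a symbol for each replicate and a line at the mean of 3. Muc1, Muc4, Muc20, Muc16, Muc5b and Muc5ac lie lower in all UK-5099 libraries than in any 3-inhibitor library, and Muc15 lies higher.

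Muc1 is a transmembrane mucin that is cleaved in its extracellular SEA domain and signals through its tail. It stood at 28.4, 33.4 and 57.2 normalized counts in UK-5099 replicates 1, 2 and 3, and at 1169, 1090 and 1085 in the 3-inhibitor replicates. The lowest 3-inhibitor library was far above the highest UK-5099 library, and within the UK-5099 group replicate 3 stood above the others. The group means were 39.7 ± 15.4 and 1115 ± 46.9 (SD, n = 3 each). The log2 fold change was -4.84 ± 0.20 (SE), a 28.6-fold lower value on the log2(normalized count + 1) scale (limma, adjusted p = 6.22e-09). Among the 15704 genes tested this was the fall of rank 4 in size.

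Muc4 is a very large membrane mucin whose rat form binds the receptor ErbB2. It stood at 136.1, 119.7 and 205.8 normalized counts with UK-5099 and at 2117, 1819 and 1880 with the 3 inhibitors. Replicate 3 was again the highest of the UK-5099 group, and the groups lay far apart. The log2 fold change was -3.68 ± 0.16 (SE, n = 3 each; limma, adjusted p = 7.75e-09), or 12.8-fold lower, the fall of rank 51. Muc20, a smaller mucin whose human form binds the receptor MET, is the neighbour of Muc4 on chromosome 16. It stood at 62.0, 48.3 and 91.3 normalized counts with UK-5099 and at 435, 364 and 403 with the 3 inhibitors. The 3 replicates kept the same order in Muc20 as in Muc4 within each group. Its log2 fold change was -2.60 ± 0.19 (limma, adjusted p = 5.51e-07), or 6.07-fold lower.

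Muc4 and Muc20 lie on opposite strands with their 3′ ends over each other. In the GENCODE M21 annotation 627 exon bases were shared, 5.33% of the exon bases of Muc4 and 15.6% of those of Muc20. The labels do not say whether reads were counted by strand, so reads from this stretch cannot be assigned to either gene with certainty. The log2 ratio of Muc4 to Muc20 within a library was 1.21 ± 0.09 for UK-5099 and 2.28 ± 0.05 for the 3 inhibitors (SD, n = 3), with no overlap between the groups. This ratio restates the difference between the fold changes of the 2 genes.

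Muc16, known as CA125 in human, is the longest of the membrane mucins and is common on wet epithelial surfaces. It was low throughout, at 14.2, 14.8 and 21.9 normalized counts with UK-5099 and 49.5, 54.5 and 37.5 with the 3 inhibitors. The gap between the groups was narrower than for the other membrane mucins, though no values overlapped. Its log2 fold change was -1.43 ± 0.26 (SE, n = 3 each; limma, adjusted p = 0.000714), or 2.69-fold lower. The difference rested on 48 reads in the 3 UK-5099 libraries together and 150 in the 3-inhibitor libraries, with exact Poisson 95% intervals of 35.4 to 63.6 and 127 to 176 reads that cover counting error only.

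Muc15, a small membrane mucin first known from cow milk fat globules, was the 1 member that was higher with UK-5099. It stood at 153.4, 161.5 and 180.3 normalized counts with UK-5099 and at 23.7, 31.3 and 21.9 with the 3 inhibitors. All UK-5099 libraries lay close together and well above the other group. The log2 fold change was 2.65 ± 0.18 (SE, n = 3 each; limma, adjusted p = 3.03e-07), or 6.29-fold higher, the rise of rank 69 among the genes tested. Muc15 overlaps Ano3, a gene of the anoctamin family on the other strand, by 61 exon bases, 1.71% of its own. Ano3 went the opposite way, at 76.0 ± 24.0 against 165 ± 2.70 normalized counts (SD, n = 3; limma, adjusted p = 0.000288).

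Among the falls, the members differed in size. The log2 ratio of Muc1 to Muc4 within a library was -1.98 ± 0.24 in the UK-5099 group and -0.80 ± 0.06 in the other (SD, n = 3), and that of Muc1 to Muc20 was -0.78 ± 0.31 and 1.48 ± 0.09. Muc1 thus stood lower against Muc4 and against Muc20 in every UK-5099 library than in any 3-inhibitor library. The 6 ratios among Muc1, Muc4, Muc20 and Muc16 did not overlap between groups, and each gave p = 0.1 in a two-sided exact permutation test, the smallest that 3 against 3 allows (0.1 after adjustment over the 6). Replicate 3 of UK-5099, the library with the fewest reads, was the highest of its group in 5 of the 6 members tested, as it was in 43.1% of all genes tested. Without it the log2 fold change of Muc1 was -5.13, that of Muc4 -3.91 and that of Muc20 -2.85.

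**Figure D2:**
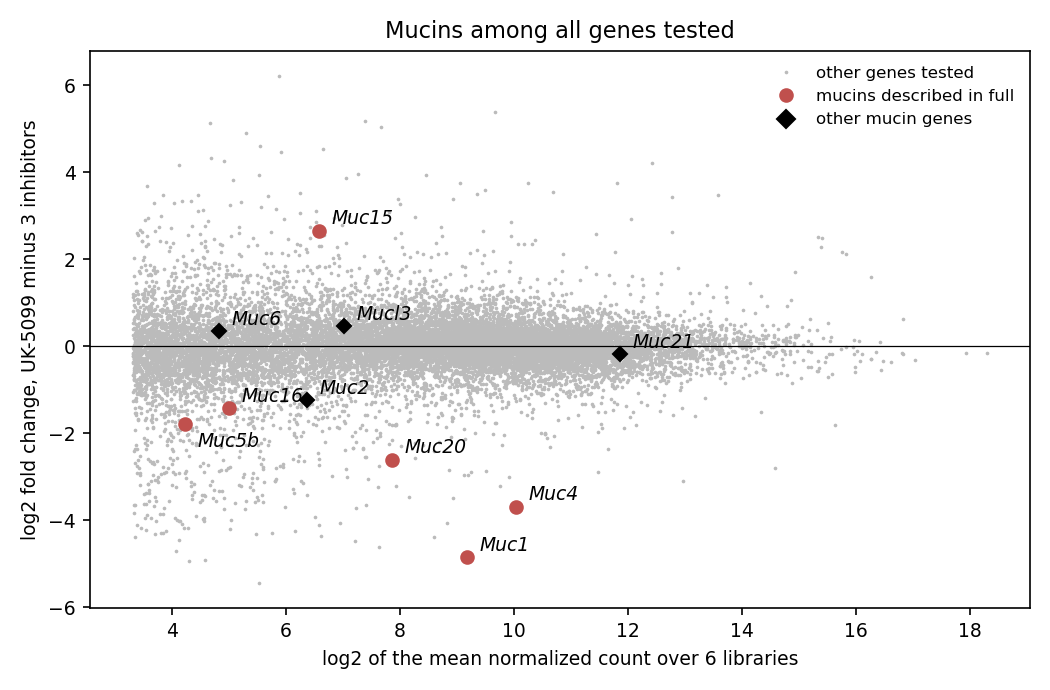
Log2 fold change (UK-5099 minus 3 inhibitors) against the log2 of the mean normalized count for the 15704 genes tested, with the 6 tested mucins in red and 4 other mucin genes in black. Muc1, at -4.84, and Muc4, at -3.68, lie at the lower edge of the genes of their level, Muc15, at 2.65, lies above, and Muc21 lies near 0.

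The starts of the membrane mucins that were lower with UK-5099 are shown here because these genes were lower together. Each window runs from 250 bases before to 50 bases after the transcription start and was taken from RefSeq on GRCm38.p6, another build than the GRCm39 of the counts. Of the 7 members, 4 had a window. Muc1 lies at chr3:89228806-89229105 on the plus strand, Muc4 at chr16:32735636-32735935 on the plus strand, Muc20 at chr16:32797386-32797685 on the minus strand and Muc16 at chr9:18674554-18674853 on the minus strand. Capitals mark matches, on either strand, to the letters searched, which were TGAGTCA or TGACTCA (AP-1), CAGAC (SMAD), TTCNNNGAA (STAT), ACGTG (HIF), GGGCGG (GC box) and TGTTTNC (forkhead). No match overlapped another.
Muc1 promoter: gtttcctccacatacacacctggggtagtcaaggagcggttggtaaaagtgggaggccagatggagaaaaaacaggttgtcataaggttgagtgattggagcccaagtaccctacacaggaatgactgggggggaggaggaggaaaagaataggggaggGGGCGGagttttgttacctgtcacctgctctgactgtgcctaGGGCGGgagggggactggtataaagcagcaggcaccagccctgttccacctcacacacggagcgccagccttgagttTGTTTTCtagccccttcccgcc
Muc4 promoter: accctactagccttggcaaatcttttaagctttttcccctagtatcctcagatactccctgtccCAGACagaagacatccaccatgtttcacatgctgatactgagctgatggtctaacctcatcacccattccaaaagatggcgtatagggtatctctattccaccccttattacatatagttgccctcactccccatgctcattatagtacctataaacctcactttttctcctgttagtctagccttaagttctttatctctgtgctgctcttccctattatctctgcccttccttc
Muc20 promoter: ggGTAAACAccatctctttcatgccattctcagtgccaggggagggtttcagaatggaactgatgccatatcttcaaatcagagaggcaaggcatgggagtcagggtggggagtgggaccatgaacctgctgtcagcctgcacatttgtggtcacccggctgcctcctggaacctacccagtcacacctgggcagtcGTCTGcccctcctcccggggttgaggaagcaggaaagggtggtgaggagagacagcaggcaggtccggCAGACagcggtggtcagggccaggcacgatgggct
Muc16 promoter: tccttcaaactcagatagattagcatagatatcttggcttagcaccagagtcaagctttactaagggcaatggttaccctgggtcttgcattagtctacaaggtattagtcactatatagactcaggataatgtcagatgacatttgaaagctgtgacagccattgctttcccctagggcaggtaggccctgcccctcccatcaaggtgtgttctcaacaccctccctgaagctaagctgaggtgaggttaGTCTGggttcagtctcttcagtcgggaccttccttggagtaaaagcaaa

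The windows differed in composition and in what they matched. GC content was 55.7% in Muc1, 43.7% in Muc4, 59.3% in Muc20 and 46.7% in Muc16, against a median of 52.7% over 32851 RefSeq windows. CAGAC or its reverse complement occurred at 1 place in Muc4, 1 in Muc16 and 2 in Muc20 and was absent from the Muc1 window, and 49.6% of all windows held it. Muc1 alone of the 4 held GGGCGG, at 2 places whose first bases lie at -91 and -49 from the start, a motif that 35.7% of all windows held. TGTTTNC was matched once in Muc1 and once in Muc20 (20.5% of all windows). None of the 4 windows held the AP-1, STAT or HIF letters, which 5.20%, 8.30% and 19.6% of all windows held. These matches describe the letters only.

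The secreted mucins were close to the limit of detection. Muc5b, the gel-forming mucin that airway clearance in mice depends on, stood at 11.2, 8.35 and 4.87 normalized counts with UK-5099 and at 23.7, 34.9 and 30.1 with the 3 inhibitors. No values overlapped, and here replicate 3 was the lowest of the UK-5099 group. The log2 fold change was -1.79 ± 0.35 (SE, n = 3 each; limma, adjusted p = 0.00106), or 3.46-fold lower, from 24 reads in all with UK-5099 and 95 with the 3 inhibitors.

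Muc5ac, the gel-forming mucin of surface goblet cells, was below the low filter and was not tested. It stood at 4.06, 7.42 and 0 normalized counts with UK-5099, or 4, 8 and 0 reads, and at 8.25, 14.3 and 17.4 with the 3 inhibitors, or 8, 16 and 19 reads. The highest UK-5099 library fell just short of the lowest 3-inhibitor library. The group sums of 12 and 43 reads have exact Poisson 95% intervals of 6.20 to 20.96 and 31.1 to 57.9, and the library with 0 reads allows up to 3.

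Levels of different mucins were compared per kilobase of coding length, from the longest coding sequence of each gene in GENCODE M21, together with Muc21, the membrane mucin also called epiglycanin. With the 3 inhibitors Muc21 led at 817 ± 33.1 normalized counts per kilobase, followed by Muc1 at 589 ± 24.8 (SD, n = 3). Muc20 at 194 ± 17.3 and Muc4 at 186 ± 15.1 came next, with overlapping ranges and in the reverse order when the longest transcript was used in place of the coding length. Muc15 followed at 25.82 ± 5.001 per kilobase. Muc5b, Muc16 and Muc5ac were at 2.05 ± 0.39, 1.85 ± 0.34 and 1.28 ± 0.45 per kilobase, and neighbours in this order overlapped.

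With UK-5099 the order was different below the leading Muc21, which stood at 729.9 ± 143.9 normalized counts per kilobase. Muc15 was second at 166 ± 13.9 per kilobase (SD, n = 3). Muc20, Muc1 and Muc4 followed at 32.6 ± 10.7, 20.97 ± 8.13 and 14.8 ± 4.39 per kilobase, each overlapping the next. Muc16, Muc5b and Muc5ac stood at 0.668 ± 0.168, 0.565 ± 0.219 and 0.369 ± 0.359 per kilobase and overlapped too. As shares of the per-kilobase sum of these 8 genes, Muc1 made up 32.4 ± 0.417% with the 3 inhibitors and 2.14 ± 0.523% with UK-5099, Muc15 1.43 ± 0.321% and 17.5 ± 2.45%, and Muc21 44.96 ± 0.393% and 75.4 ± 2.24%. The share of Muc15 depends on the length used, since its coding length is 993 bases and its longest transcript 3421. Per kilobase of transcript Muc15 stood at 48.2 ± 4.02 with UK-5099, still second to Muc21 at 672 ± 132. With the 3 inhibitors it stood at 7.49 ± 1.45. Shares per transcript length were not computed. The coding lengths of these repeat-rich genes depend on the annotation, so the order between genes is less certain than the differences between groups.

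**Figure D3:**
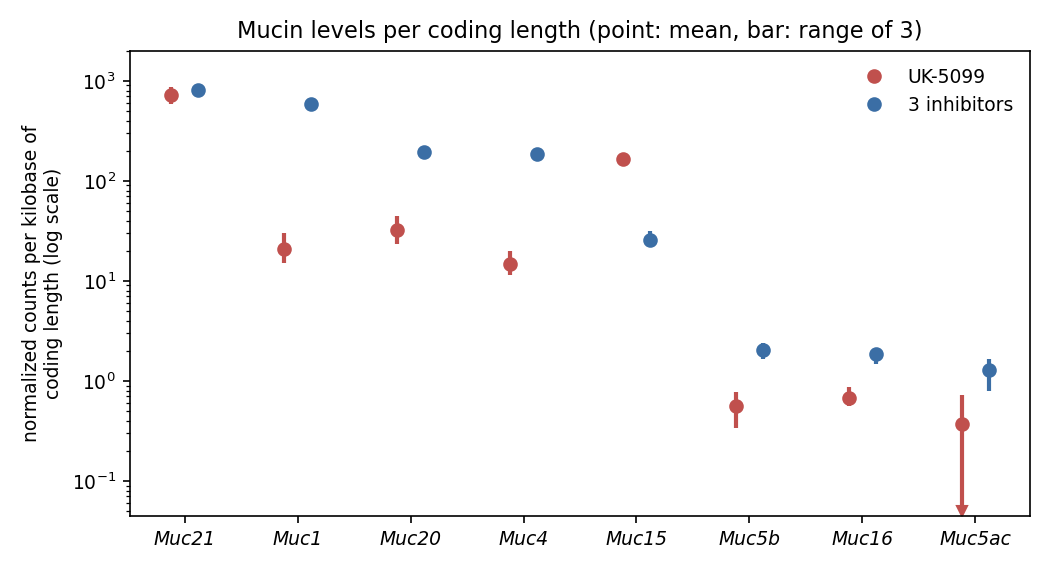
Normalized counts per kilobase of coding length on a log axis for the 7 mucins and Muc21, as the mean (point) and the range of 3 libraries (bar) for each group. Muc21 leads in both groups, Muc1 is second with the 3 inhibitors at 589 and Muc15 is second with UK-5099 at 166, and an arrowhead marks the Muc5ac library at 0.

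Other mucin and mucin-like genes showed no common direction. Of 19 listed, 17 were in the table and 8 passed the filter, of which 3 were lower, 1 higher and 4 not called, with a median log2 fold change of -0.23 against -0.00049 over all genes tested. The share called was near the 53.8% of all genes tested and is no result about the list. Muc2, a gel-forming mucin best known from the intestine, lies next to Muc5ac, in a cluster with Muc5b. It was lower, at 48.9 ± 4.47 against 116.6 ± 2.74 normalized counts (SD, n = 3), with a log2 fold change of -1.24 ± 0.15 (limma, adjusted p = 2.74e-05). Muc6, the gastric gland mucin, was not called, with a log2 fold change of 0.35 and a 95% interval from -0.24 to 0.94. Cd164, the sialomucin endolyn, was 1.58-fold lower and Ovgp1, an oviduct glycoprotein, 1.77-fold lower, and Mucl3 was 1.37-fold higher. The other mucin-like genes tested were Parm1 (log2 fold change -0.20, adjusted p = 0.277) and Podxl, which encodes podocalyxin (-0.26, adjusted p = 0.499), neither of them called by limma. Muc3a, Muc19, Mucl1, Mucl2, Emcn and Umod were at 0 in every library.

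Muc21 was not called. It stood at 3525, 2819 and 4205 normalized counts with UK-5099 and at 4108, 3793 and 3906 with the 3 inhibitors. The UK-5099 libraries spanned the whole range of the other group. The log2 fold change was -0.18 ± 0.11 (SE, n = 3; limma, adjusted p = 0.184), with a 95% interval from -0.42 to 0.06 that does not reach the size of the change in Muc16. Without UK-5099 replicate 3 the log2 fold change was -0.32 and was called (adjusted p = 0.000893), and Parm1 was called as well (-0.38, adjusted p = 0.0116). The adjusted p of Muc21 over its other alternatives stayed on the other side of the threshold.

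Enzymes that build mucin O-glycans went both ways. Of 31 listed, 25 were tested, with 12 lower, 8 higher and 5 not called, and a median log2 fold change of -0.15. The sialyltransferase St3gal4 was 2.53-fold lower, at 1325 ± 108 against 3344 ± 95.1 normalized counts, whereas St3gal6, which acts on similar ends, was 1.85-fold higher, at 1230 ± 40.2 against 665 ± 62.1 (SD, n = 3; limma, adjusted p = 9.75e-09 and 7.83e-07). B3gnt3, which extends O-glycan chains, was 1.93-fold lower. Of the branching enzymes tested, Gcnt1 was 2.33-fold lower, at 186 ± 11.2 against 435 ± 37.6. Gcnt3 was 1.81-fold higher, at 998 ± 63.0 against 552 ± 42.7. In all 20 of 25 were called, beside 53.8% of all genes tested. Among those called, B3gnt6 (7.25 with UK-5099 against 28.6) passed the filter only through its 3-inhibitor libraries. St6galnac4 (15.8 with UK-5099 against 7.28) passed it only through its UK-5099 libraries.

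**Figure D4:**
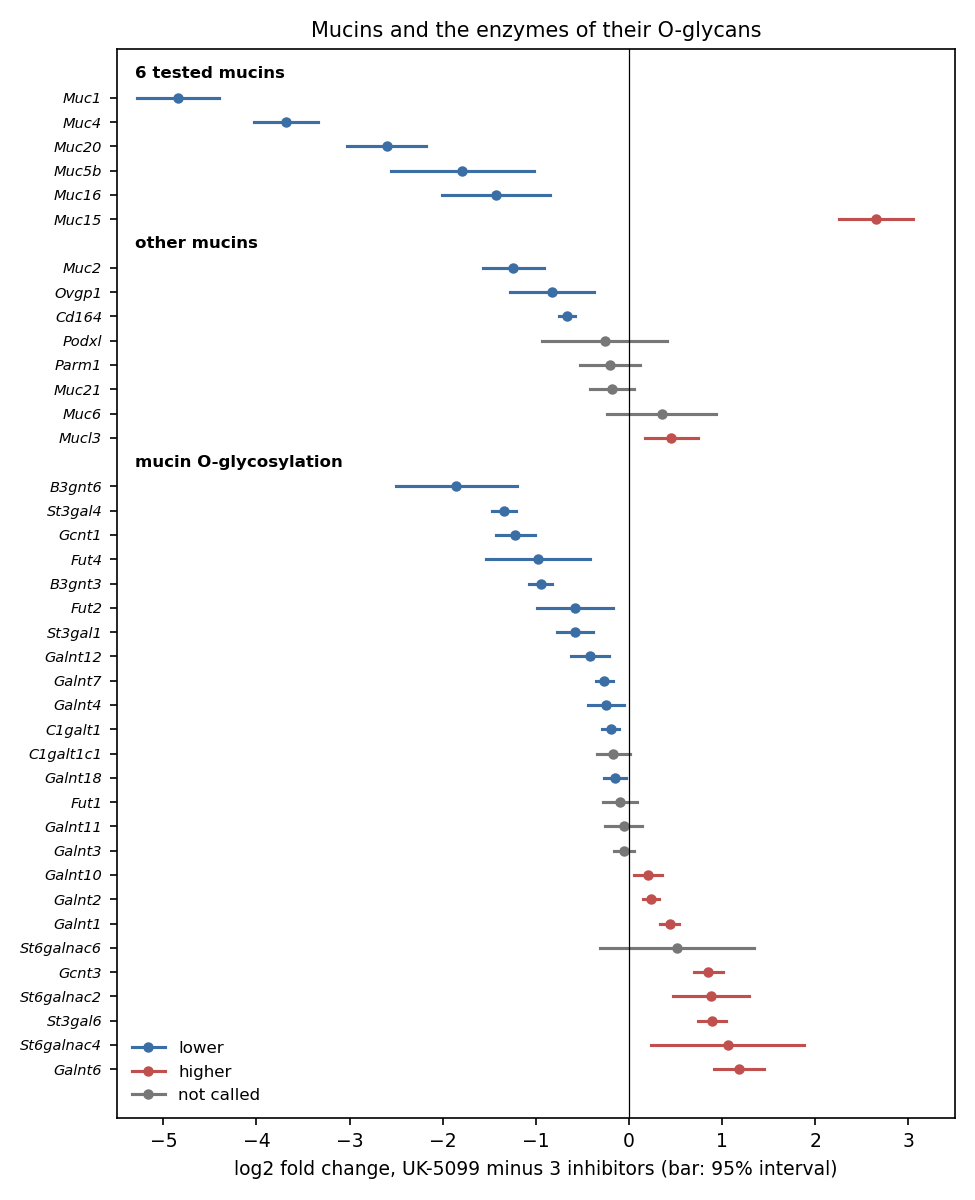
Log2 fold changes (UK-5099 minus 3 inhibitors) with 95% intervals for the tested mucins, other mucin genes and O-glycosylation enzymes, coloured by call. The 5 lower mucins lie between -4.84 and -1.43, and the other mucins and the enzymes lie on both sides of 0, from -1.85 for B3gnt6 to 1.18 for Galnt6. B3gnt6 passed the filter only through its 3-inhibitor libraries.

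Genes of the goblet cell programme showed no single direction. Of 29 listed, 17 were tested, with 6 lower, 3 higher and 8 not called (median log2 fold change -0.02). This share of calls was near the 53.8% of all genes tested and is no result about the list. Spdef, the transcription factor that drives goblet cell formation, was at the floor in both groups, at 1.30 ± 1.13 and 0.900 ± 0.894 normalized counts (SD, n = 3), and Foxa2, which restrains goblet cell formation in the mouse lung, was at 2.94 ± 2.31 and 6.65 ± 1.89. Neither was tested. Agr2, an endoplasmic reticulum protein needed for mucin folding, was 4.51-fold lower, at 14.9 ± 4.75 against 70.6 ± 19.5 (limma, adjusted p = 5.10e-05). Fcgbp, a large protein that is found with mucins in mucus, was 5.82-fold lower, and Gabrp, a GABA receptor subunit, was lower by a log2 fold change of -1.58. Foxa1, a forkhead factor of airway epithelium, was 1.89-fold lower. Galnt6, which starts O-glycan chains, was 2.27-fold higher.

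Among 25 genes of mucin granule release, 21 were tested, with 9 lower, 5 higher and 7 not called (median log2 fold change -0.11), beside 26.6% lower and 27.2% higher over all genes tested. Rab27a, a small GTPase that docks secretory granules, was 2.56-fold lower, at 200.2 ± 25.9 against 512 ± 18.4 normalized counts (SD, n = 3; limma, adjusted p = 4.58e-07). The priming factor Unc13b was 1.78-fold lower and the granule SNARE Vamp8 1.54-fold lower, whereas the syntaxin Stx11 was 1.57-fold higher.

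Of 25 binding partners and sheddases of the membrane mucins listed, 20 were tested, with 9 lower, 3 higher and 8 not called (median log2 fold change -0.11). The share of calls was near the 53.8% of all genes tested. Only Lgals1 passed 2-fold, a size that 5.48% of all genes tested passed downward and 4.67% upward. Erbb2, the partner of rat Muc4, was 1.70-fold lower, at 1151 ± 104 against 1948 ± 69.3 normalized counts (SD, n = 3; limma, adjusted p = 1.52e-06), and Erbb3, with which it pairs, was 1.89-fold lower. Msln, whose human form binds MUC16, was abundant in both groups and 1.57-fold lower, at 19564 ± 1709 against 30588 ± 357. Ezr, which encodes the membrane linker ezrin, was 1.52-fold lower, whereas the related linker genes Msn and Rdx were 1.27-fold and 1.18-fold higher. Met, the partner of human MUC20, was not called, with a log2 fold change of -0.07 and a 95% interval from -0.18 to 0.05. Met was called lower when libraries were centred on their median (-0.16, adjusted p = 0.0300) and without UK-5099 replicate 3 (-0.12, adjusted p = 0.0162). Of the galectins, Lgals3 was 1.63-fold lower and Lgals1 3.14-fold higher.

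Of the genes next to the mucins along the chromosome, some are mucins themselves: Muc20 beside Muc4, and Muc2 and Muc5b beside Muc5ac, all lower as given above. Of the other neighbours tested, Trim46 beside Muc1 had a log2 fold change of -0.27 ± 0.09 (SE, n = 3; limma, adjusted p = 0.0278), and leaving out any library but UK-5099 replicate 3 ended its call (adjusted p from 0.0501 to 0.0873). Thbs3, on the other side of Muc1, averaged 9.64 and 10.1 normalized counts and was not tested. Tnk2, beside Muc4, had a log2 fold change of -0.14 ± 0.05 (adjusted p = 0.0326). Its call was lost without UK-5099 replicate 1 or 2 and without 3-inhibitor replicate 1 or 3 (adjusted p from 0.0902 to 0.132), and without the trend in limma (adjusted p = 0.117). Tollip, beside Muc5b, was lower by a log2 value of -0.39 ± 0.05 (adjusted p = 3.67e-05). Mbd3l1 and Olfr24, on either side of Muc16, were at 0 in every library.

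Genes whose pattern over the 6 libraries was most like that of a mucin were ranked by the root mean square difference between centred log2 profiles. Such a profile is mostly the difference between the groups, so the ranking mainly finds genes of similar fold change. Shared regulation was not tested. Nearest to Muc1 came Prom1, the membrane protein prominin, at 0.289, then Scnn1g, a subunit of the epithelial sodium channel, at 0.382, and Klhdc7a at 0.389. For Muc4 these were Smpd3 (0.0582), Ffar4, a fatty acid receptor (0.202), and Cp, ceruloplasmin (0.225). Cdo1, Fzd7 and Arhgdib were nearest to Muc16, between 0.0936 and 0.134, and Cx3cl1, Cyp4f15 and Dhrs3 to Muc20, between 0.119 and 0.167. The genes nearest to Muc15 were the matrix protein Tnc (0.111), Sprr3, a cornified envelope protein (0.123), and Fcamr (0.158). For Muc5b they were Angpt2, Mmp11 and Eif1ad10, from 0.0769 to 0.190. Prom1, Klhdc7a, Smpd3, Cyp4f15, Angpt2 and Eif1ad10 averaged below 10 normalized counts with UK-5099. They passed the filter only through their 3-inhibitor libraries, so their closeness rests on few UK-5099 reads.

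Markers of basal and other cell types are given beside the mucins, and their calls stand against 26.6% lower and 27.2% higher over all genes tested. Of 14 club and secretory cell markers, 8 were tested, with 6 lower and 1 higher, and their summed level ran from 37891 to 40047 normalized counts with UK-5099 and from 89984 to 96786 with the 3 inhibitors. Most of this sum was Cbr2, at 6150 ± 611 and 42903 ± 1197, and Nupr1, at 21552 ± 1619 and 38420 ± 1937 (SD, n = 3). Scgb1a1, the club cell secretory protein, was 4.56-fold lower, at 36.5 ± 4.32 against 170.9 ± 27.9 (SD, n = 3; limma, adjusted p = 9.82e-07), and Scgb3a2, Bpifb1 and Upk3a were at or near 0. Cbr2, a carbonyl reductase, was 6.996-fold lower, Cyp2f2, a cytochrome P450, 3.46-fold lower and Lypd2 3.40-fold lower, whereas the glutathione transferase Gsta3 was 1.87-fold higher. All 15 basal cell markers were tested, with 12 higher and 2 lower, and their sum ran from 403065 to 429481 against 203163 to 219523. The keratins Krt14, Krt17 and Krt5 were 5.66-fold, 3.26-fold and 3.01-fold higher and Sfn 2.56-fold higher. The lower ones were Ngfr, a nerve growth factor receptor that marks basal cells, by 4.59-fold and the water channel Aqp3 by 1.35-fold, and Krt15 was not called. Squamous and hillock markers were higher in 14 of 17 and lower in 2, with sums from 335486 to 353978 against 158085 to 164658. The keratin Krt16 was 18.4-fold higher, the protease inhibitor Spink5 13.5-fold, Cnfn 5.98-fold and Krt6a 5.58-fold. The 2 lower ones were Lor by 1.82-fold and Lgals3 by 1.63-fold. The keratin Krt10 was not called, and the keratin Krt4 was only 1.16-fold higher. For submucosal gland markers 5 of 6 tested were lower and none higher, with sums from 74914 to 84106 against 113741 to 118777, though the gland genes Bpifb2 and Prb1 were at 0 throughout. Pigr, the receptor that carries secreted antibodies, was 4.83-fold lower, lactoferrin (Ltf) 2.82-fold, Krt18 1.75-fold and the water channel Aqp5 1.49-fold.

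Of 18 multiciliated cell markers 5 were tested, with 3 higher and none lower, sums ran from 7372 to 8092 against 6168 to 6498, and the defining factor Foxj1 was at 0.339 and 3.23 normalized counts. The 3 were Rsph1, Cfap43 and Tubb4b, higher by 1.76-fold, 1.54-fold and 1.24-fold, and nearly all of the sum was the tubulin Tubb4b, at 7588 ± 394 and 6135 ± 179.9. Leukocyte markers had 2 of 12 tested, 1 of them lower, with sums from 497 to 710 against 533 to 568 that came mostly from Cd68, while Ptprc was at 1.03 normalized counts or below in every library. Cd74, the lower one, stood at 6.60 ± 1.32 against 27.7 ± 6.64 and passed the filter only through its 3-inhibitor libraries. Among leukocyte markers below the filter, Lyz2 averaged 0.309 against 13.7, Csf1r 0 against 6.98 and Cd79a 0 against 5.39 normalized counts. Each of these was without overlap between the groups, as was Laptm5 in the same direction, and they were picked after their values were seen. Among genes that passed the filter 60.8% did not overlap. In Cd79a the separation rested on 1 read in 3-inhibitor replicate 3, at 0.914 normalized counts. Laptm5 stood at 6.18, 0.894 and 0.914 with the 3 inhibitors, the last 2 being 1 read each. The groups overlapped in Ptprc, Cd3e, Itgam and H2-Ab1, of which H2-Ab1 was on average higher with UK-5099. Adgre1 and Tyrobp were at 0 in every library. Whether the groups differed in leukocyte content was not tested. The ionocyte, tuft and neuroendocrine markers had 1 of 12 tested, Cftr, which was lower, with sums from 82.8 to 96.5 against 139 to 180.4, and Foxi1 at 0. Of 14 stromal and mesothelial markers 3 were tested and 2 were lower, Msln and Lrrn4, with sums from 18141 to 21541 against 30323 to 31031 that were almost all Msln, while Col1a2, Col3a1 and Wt1 were at 0. Lrrn4 stood at 2.89 ± 1.93 against 42.4 ± 12.1 and passed the filter only through its 3-inhibitor libraries, and its log2 fold change was -3.57 with a pseudocount of 1 and -2.58 with 5. The part of these markers in the mucin results was not tested.

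**Figure D5:**
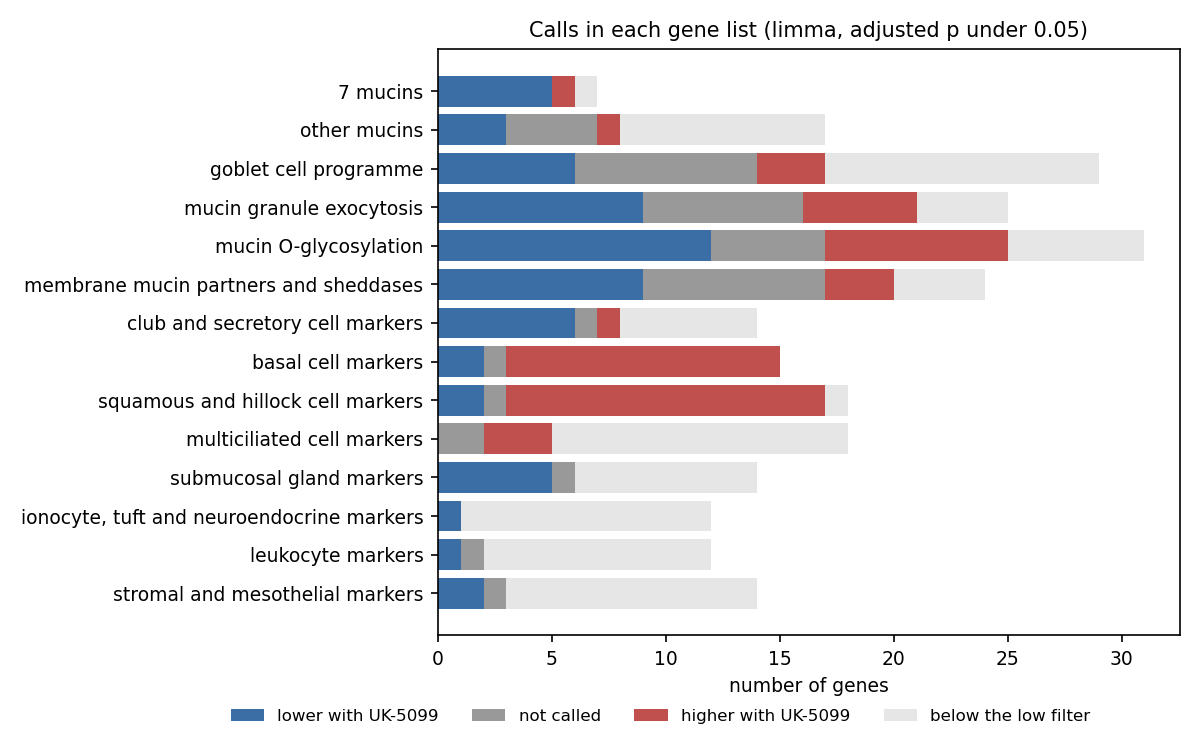
Number of genes called lower, not called, called higher or below the low filter in each gene list (limma, adjusted p under 0.05; UK-5099 against 3 inhibitors). The 7 mucins show 5 lower, 1 higher and 1 below the filter. Among the genes tested, the club and secretory list and the submucosal gland list are mostly lower too. The basal and squamous lists are mostly higher, and the other lists are mixed or have few genes tested.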

How the data were processed

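Per the submitters' processing notes, HISAT2 2.1.0 and DESeq2 1.36.0 were among the tools and the build was GRCm39. How reads were counted, by strand or not and on which annotation, is not stated in those notes or the labels. The authors deposited the log2 of normalized counts, a unit other than plain counts, with a text mark for a count of 0. Values were raised back to normalized counts, and whole reads were recovered by dividing each library by its smallest nonzero value. Between 99.988% and 99.992% of nonzero values lay within 0.02 of a whole number. Of 57107 entries, 359 repeated an identifier, which left 56748 genes.

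The 15704 genes that averaged 10 or more normalized counts were fitted on the log2(normalized count + 1) scale by limma 3.58.1 under R 4.3.3, using lmFit and trended eBayes with no covariate and two-sided tests, with Benjamini-Hochberg adjustment over all of them at 0.05. A log2 fold change is the UK-5099 mean less the 3-inhibitor mean, and errors of fold changes are standard errors of the fit. Intervals and floors on reads cover counting error only. The fit was also run on simulated counts with the same dispersion for all genes and few changed genes. That setting differs from these data, where 53.8% of genes tested were called, so it gives no error rate for them. Lengths and overlaps come from GENCODE M21 on GRCm38, with Muc4 matched by symbol, because its identifier differs there. Gene order comes from RefSeq on GRCm38.p6. Levels per length use GENCODE coding lengths in place of the RefSeq proteins planned, and the planned protein features were not computed.

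The members and lists were chosen with earlier results of these data known. Named genes are, by rule, the 7 mucins, up to 4 called genes of each list by smallest adjusted p, a fixed set of partners, factors and markers whatever their result, the 3 most alike genes of each tested mucin, and chromosomal neighbours. Other genes printed, such as Muc21, Muc6, Parm1, Podxl, the genes at or near 0, Trp63, Ngfr, Aqp3, Krt15, Nupr1, Cd68, Lyz2, Csf1r, Cd79a, Laptm5, Lor, Krt10, Krt4, B3gnt6, St6galnac4, Gcnt3, Msn, Rdx, Xist and Ddx3y, were chosen after their values were seen. Alternatives were 2 pseudocounts, 2 low filters, 2 scalings, limma without the trend, the replicate number as a block, limma-voom on the recovered reads, and each library left out in turn. Python 3.11.15 with pandas 2.3.3, numpy 2.4.6, scipy 1.17.1 and matplotlib 3.10.9 was used.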

Additional observations from a re-analysis of the deposited data

How the results depend on the processing

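The 6 mucin calls kept their direction and stayed past the threshold under each of the 15 alternatives in which the gene was tested. Muc1 ranged from -5.13 to -4.64, Muc4 from -3.91 to -3.52, Muc20 from -2.85 to -2.39, Muc16 from -1.62 to -1.25, Muc5b from -2.03 to -1.41 and Muc15 from 2.48 to 2.80 on the log2 scale, with adjusted p of at most 0.00961. With a minimum mean of 50, Muc16 and Muc5b were not tested and 3 members were called lower. Without a low filter Muc5ac was called lower as well (log2 fold change -1.98, adjusted p = 0.0315), so 6 were. When libraries were left out in turn, 5 members were called lower and 1 higher in each fit, and other mucins called lower ranged from 3 to 5, with 5 without UK-5099 replicate 3, where Muc21 and Parm1 were added. Of 79 tested genes in the named set, 74 kept their side of the threshold throughout and none changed sign, and the exceptions were Muc21, Parm1, Met, Trim46 and Tnk2. Centring libraries on their median moved the share of calls that were higher over all genes from 50.6% to 39.1%. Same-numbered libraries did not deviate together (correlations of -0.02, 0.12 and -0.09 over genes), and not every library correlated best with its own number. With the replicate block 5 members were called lower and 1 higher, and 50.8% of calls over all genes were higher. Depth limits Muc5ac, Muc5b and Muc16, each with at most 61 reads in a library.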
